A study of Oryza sativa Japonica Group with 6 samples.

Results

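Invertases split sucrose into glucose and fructose, and 6 rice invertase genes were described in grains of the sgs3 mutant and of its wild type. The genes were taken by locus from the deposited gene table, which lists 55983 genes, and all 6 were found there. They are the cell wall invertases CIN1 (LOC_Os02g33110), CIN2 (LOC_Os04g33740) and CIN3 (LOC_Os04g33720), the vacuolar invertases LOC_Os02g01590 and LOC_Os04g45290, and the cytosolic invertase CINV1 (LOC_Os02g34560). The choice was made by locus, with earlier results of these data known. By their locus names, CIN1, CINV1 and LOC_Os02g01590 lie on chromosome 2, and CIN2, CIN3 and LOC_Os04g45290 on chromosome 4.

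The mutant group was labelled sgs3 with EMS as its treatment, and EMS, ethyl methanesulfonate, is an alkylating mutagen used to induce base changes. The other group was the line Zhenong 34, labelled wild type (WT) with the treatment Control. Both groups are Oryza sativa Japonica Group, the sampled tissue was grain, and the labels give neither the stage nor the age of the grains. Each group had 3 messenger RNA libraries, and the contrast of the design was sgs3 against WT. The labels do not say which gene carries the mutation, nor whether replicate libraries stem from different plants. The p-values below therefore reflect library-to-library spread only, and that spread may be technical.

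Sucrose arrives in the grain through the phloem and is released on the maternal side, since no cell connections lead into the filial tissues. Cell wall invertases cleave it outside the cells, and the hexoses are then taken up by monosaccharide transporters. Vacuolar invertases are acid enzymes that act inside the vacuole and are known for their part in cell expansion. Cytosolic invertases work at neutral to alkaline pH and belong to another protein family. Inside the cell sucrose can also be cleaved by sucrose synthase, whose product UDP-glucose leads to starch and cell wall synthesis. In rice, CIN2 is also known as GIF1 (GRAIN INCOMPLETE FILLING 1), and its loss impairs grain filling.

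The annotation in the deposited table matched the class of each member. CIN1, CIN2 and CIN3 were described as insoluble isoenzymes of beta-fructofuranosidase, another name for invertase, and CINV1 as an alkaline/neutral invertase. Both vacuolar loci carried the description Beta-fructofuranosidase 1, so they are called by their loci here. The 3 cell wall and 2 vacuolar genes carried a glycoside hydrolase family 32 domain, and CINV1 carried one of family 100.

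Levels were given as TPM, transcript abundance relative to the total of the library, which is scaled by gene length and can be compared between genes. TPM keeps no sequencing depth, so the number of reads behind a value is unknown. The libraries differed in composition in a way that touches each result below. Summed TPM of 46 endosperm storage protein genes lay between 362558 and 421642 in sgs3 and between 40287 and 299508 in WT, with 2 of these genes at 0 in all libraries. For 72 histone genes, marking dividing cells, the sum lay between 1199 and 2243 in sgs3 and between 2436 and 6278 in WT, with 3 at 0. Genes at 1 TPM or more numbered 12523, 14636 and 15839 in sgs3 and 17875, 15506 and 17683 in WT. WT replicate 1 had the lowest storage protein sum and the highest histone sum. LOC_Os12g09580, described as a SUPPRESSOR OF GENE SILENCING 3 homolog, had 8.73, 11.59 and 29.24 TPM in sgs3 and 94.92, 40.86 and 53.45 TPM in WT. Its sgs3 libraries all lay below its WT libraries, as in 52.6% of all tested genes on TPM. Over the 16352 tested genes the median log2 fold change of sgs3 over WT was -0.86, and after median-of-ratios scaling between libraries it was -0.01. Fold changes are therefore given on both scales. In bulk grain RNA, fewer cells of a type and less RNA per cell cannot be told apart.

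CIN2, the cell wall invertase known for grain filling, was the cell wall member with the highest mean in both groups and was higher in every sgs3 library than in any WT library. It had 6.70, 9.71 and 8.93 TPM in sgs3 and 5.91, 2.61 and 1.61 TPM in WT. The groups did not overlap, although WT replicate 1 came close to sgs3 replicate 1. The means were 8.45 ± 1.56 TPM in sgs3 and 3.38 ± 2.25 TPM in WT (SD, n = 3 each). On log2(TPM + 1), where the added 1 understates changes of low genes, the fold change was 1.22 (SE 0.42, 95% interval 0.26 to 2.18) and missed the threshold of 0.05 (limma adjusted p = 0.0561). Of all tested genes 1.55% were called higher in sgs3, and 3.68% had every sgs3 library above every WT library. The fold change of CIN2 stood at percentile 97.7 of all tested genes.

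Scaling between libraries widened the distance between the groups for CIN2. Scaled TPM was 13.6, 13.6 and 9.23 in sgs3 and 2.94, 2.47 and 1.03 in WT. All 3 sgs3 libraries then lay well above the WT libraries, and WT replicate 1 was no longer close to them. The scaled log2 fold change was 2.10 (SE 0.31, 95% interval 1.38 to 2.82) and CIN2 rose (limma adjusted p = 0.0168). On this scale 1.60% of the tested genes were called higher in sgs3, and in 17.0% the sgs3 libraries all lay above the WT libraries. The scaled call was lost without sgs3 replicate 1 (limma adjusted p = 0.0959) or without sgs3 replicate 2 (limma adjusted p = 0.0967). It held without any 1 of the other 4 libraries.

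CIN1, a cell wall invertase, was low and uneven among libraries. It had 0.17, 1.25 and 0.43 TPM in sgs3 and 2.73, 0.13 and 3.36 TPM in WT. WT replicates 1 and 3 were the 2 highest libraries and WT replicate 2 was the lowest of all 6, so the groups overlapped. The means were 0.617 ± 0.564 TPM in sgs3 and 2.07 ± 1.71 TPM in WT (SD, n = 3 each), with a log2 fold change of -0.76 (SE 0.52, 95% interval -1.94 to 0.42, limma adjusted p = 0.243). After scaling the log2 fold change was -0.21 (SE 0.44, 95% interval -1.25 to 0.82, limma adjusted p = 0.753). The outcome on TPM depended on a single library, since without WT replicate 2 the log2 fold change was -1.37 and CIN1 fell (limma adjusted p = 0.0170). In that fit 7745 of the 16352 tested genes were called lower, so the call does not set CIN1 apart. On scaled values without WT replicate 2 the log2 fold change was -0.64, and CIN1 was not called (limma adjusted p = 0.257).

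CIN3, the neighbour of CIN2 on chromosome 4, was close to 0 throughout. It had 0.04, 0.02 and 0.04 TPM in sgs3 and 0, 0.02 and 0.07 TPM in WT. The groups overlapped, and no library reached the 1 TPM that the filter asked of at least 3 libraries, so CIN3 was not tested. Fitted with no filter over 33538 genes, its log2 fold change was 0.01 (limma adjusted p = 0.916).

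The vacuolar invertases were at or near 0 in most libraries and above 1 TPM in a single one, sgs3 replicate 2. LOC_Os02g01590 had 0.02, 1.48 and 0.07 TPM in sgs3 and 0.71, 0.14 and 0.35 TPM in WT. LOC_Os04g45290 had 0, 1.22 and 0 TPM in sgs3 and 0.18, 0 and 0.02 TPM in WT. For both genes the other sgs3 libraries lay at or below 0.07 TPM, and the groups overlapped. Neither gene passed the filter, and with no filter their log2 fold changes were 0.01 and 0.29 (limma adjusted p = 0.985 and 0.544). A mean over the sgs3 libraries would describe sgs3 replicate 2 alone. In that library 117 genes stood at 1 TPM or more while every other library held less than 1 part in 5 of that level, LOC_Os04g45290 among them, and such genes numbered 11 and 20 in sgs3 replicates 1 and 3 and 296, 20 and 226 in WT replicates 1 to 3. The 20 genes of the green tissue list (chlorophyll a-b binding proteins and Rubisco small subunits, 1 of them at 0 throughout) summed to 26.5, 408 and 136 TPM in sgs3 and to 359, 25.3 and 87.6 TPM in WT. That sum was highest in sgs3 replicate 2 and next in WT replicate 1, as was the level of LOC_Os02g01590. The match did not extend further. The sum in sgs3 replicate 3 was above those in WT replicates 2 and 3, while LOC_Os02g01590 was lower there (0.07 TPM against 0.14 and 0.35 TPM).

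Genes described by the word pollen, a list chosen after the values were seen, also included some that were highest in sgs3 replicate 2. Of its 117 single-library genes 4 were pollen-annotated, against 0 in each of the other 5 libraries. The pollen-specific protein C13 gene LOC_Os04g32680 had 0.08, 11.25 and 0.19 TPM in sgs3 and 2.06, 0 and 0.06 TPM in WT, and the pollen allergen gene LOC_Os06g36240 had 0, 3.44 and 0 TPM in sgs3 and 0.08, 0 and 0 TPM in WT. The whole list of 55 genes, 12 of them at 0 throughout, summed to 110, 184 and 146 TPM in sgs3 and to 541, 177 and 275 TPM in WT, so that its sum was highest in WT replicate 1. Of the 23 genes of the list that reached 1 TPM in some library, 6 were highest in sgs3 replicate 2. The part of green tissue or of pollen in the vacuolar levels was not tested.

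CINV1, the cytosolic invertase, was lower in every sgs3 library than in any WT library. It had 4.69, 5.35 and 7.72 TPM in sgs3 and 20.8, 11.5 and 15.7 TPM in WT. WT replicate 1 was highest, and the groups were separated by the gap between sgs3 replicate 3 and WT replicate 2. The means were 5.92 ± 1.59 TPM in sgs3 and 15.99 ± 4.63 TPM in WT (SD, n = 3 each). The log2 fold change was -1.28 (SE 0.36, 95% interval -2.10 to -0.47) and CINV1 fell (limma adjusted p = 0.0436). On TPM 26.3% of the tested genes were called lower in sgs3 and 52.6% had every sgs3 library below every WT library. The fold change of CINV1 stood at percentile 27.9 of all tested genes, whose median was -0.86.

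**Figure D1:**
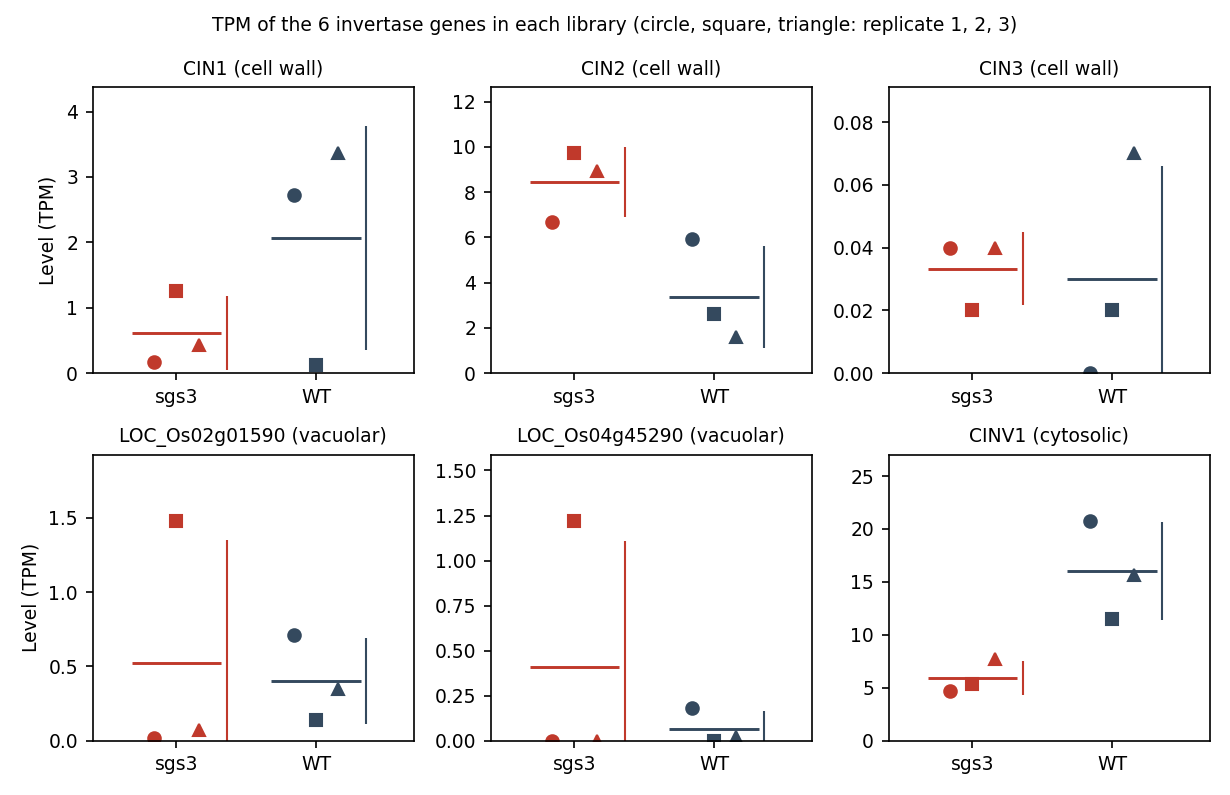
Level of each of the 6 invertase genes in TPM (vertical axis, its own scale in each panel) in the 3 sgs3 and the 3 WT libraries. Symbols are libraries, horizontal lines are group means and vertical lines span the mean ± SD (drawn from 0 where it would go below). CIN2 has its sgs3 libraries above its WT libraries, CINV1 has them below, and both vacuolar genes exceed 1 TPM in sgs3 replicate 2 alone.

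CINV1 was not called once the libraries were scaled. Scaled TPM was 9.50, 7.51 and 7.98 in sgs3 and 10.3, 10.9 and 10.01 in WT. The sgs3 libraries still lay below the WT libraries, as in 20.4% of the tested genes, with a narrow gap between the lowest WT and the highest sgs3 library. The scaled log2 fold change was -0.30 (SE 0.19, 95% interval -0.74 to 0.15) and did not pass (limma adjusted p = 0.304), where 1.03% of the tested genes were called lower. On TPM the call was also lost without any 1 of sgs3 replicates 1 and 2 and WT replicates 1 and 3, with limma adjusted p between 0.0825 and 0.186. The part of library composition in the fall of CINV1 on TPM was not tested beyond this scaling.

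Set against each other within a library, where scaling plays no role, CIN2 and CINV1 changed places. The ratio of CIN2 TPM to CINV1 TPM was 1.43, 1.81 and 1.16 in sgs3 and 0.285, 0.227 and 0.103 in WT. CIN2 exceeded CINV1 in each sgs3 library, and CINV1 exceeded CIN2 in each WT library. With CIN2 higher and CINV1 lower in every sgs3 library, a separation of their ratio was given beforehand and adds no support of its own. Cell wall members made up 59.5%, 57.7% and 54.7% of the summed TPM of the 6 genes in sgs3 and 28.5%, 19.1% and 23.9% in WT, or 57.3% ± 2.42 in sgs3 and 23.9% ± 4.69 in WT (SD, n = 3 each). The cytosolic member took 40.4%, 28.1% and 44.9% in sgs3 and 68.5%, 79.9% and 74.3% in WT. Vacuolar members took 0.17%, 14.2% and 0.41% in sgs3 and 2.94%, 0.97% and 1.75% in WT. The cell wall and cytosolic shares, which rest in part on the same CIN2 and CINV1 values, did not overlap between the groups, while the vacuolar shares overlapped. Summed cell wall levels, unlike their shares, overlapped between the groups, with 6.91, 10.98 and 9.4 TPM in sgs3 and 8.64, 2.76 and 5.04 TPM in WT. Summed vacuolar levels were 0.02, 2.70 and 0.07 TPM in sgs3 and 0.89, 0.14 and 0.37 TPM in WT. Most of these lie near 0 and neither vacuolar gene passed the filter, so no order is read from their shares. These shares are given without a test, and 3 against 3 libraries could not give an exact permutation p under 0.1.

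**Figure D2:**
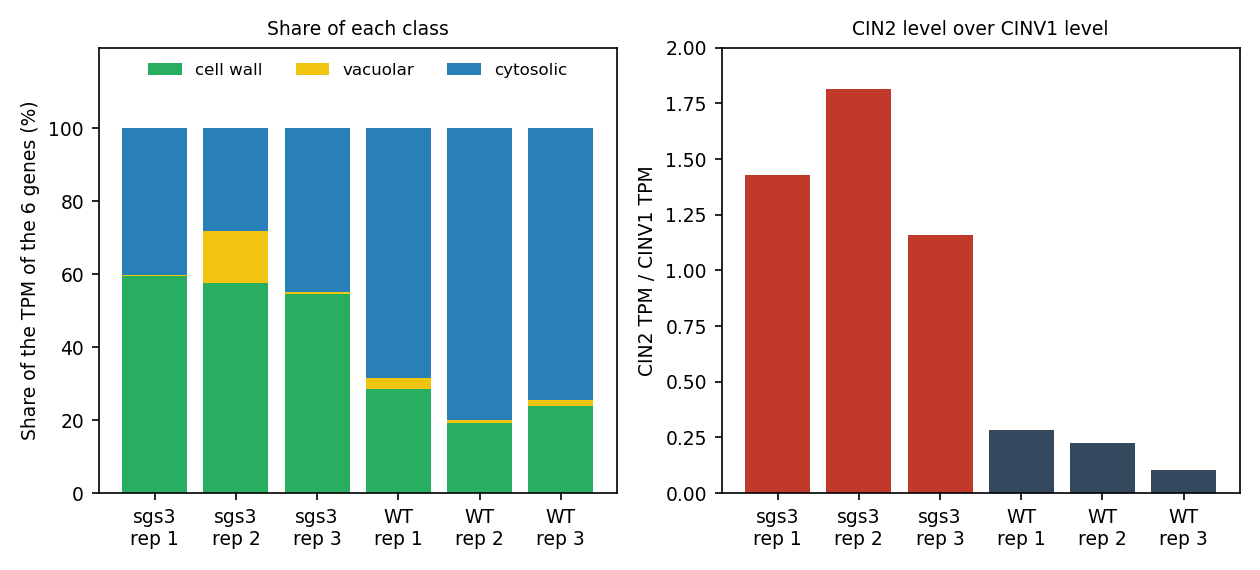
Left, share in percent of the summed TPM of the 6 invertase genes taken by the cell wall, vacuolar and cytosolic members in each library. Right, ratio of CIN2 TPM to CINV1 TPM in each library, which lies between 1.16 and 1.81 in sgs3 and between 0.103 and 0.285 in WT.

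The order of the levels restates this exchange of CIN2 and CINV1 from the same values, and adds no support of its own. By mean TPM the order in sgs3 was CIN2, CINV1, CIN1, LOC_Os02g01590, LOC_Os04g45290 and CIN3. In WT it was CINV1, CIN2, CIN1, LOC_Os02g01590, LOC_Os04g45290 and CIN3. CIN2 and CINV1 had sgs3 means whose SD ranges overlapped, although CIN2 was the higher in each sgs3 library, and in WT the 2 genes were far apart. CIN2 and CIN1 lay within their spread in WT, where CIN1 was the higher in replicate 3. CIN1 and LOC_Os02g01590 lay within their spread in both groups, as did LOC_Os02g01590 and LOC_Os04g45290, and LOC_Os04g45290 and CIN3. In summed TPM the 6 genes had 11.6, 19.0 and 17.2 in sgs3 and 30.3, 14.4 and 21.1 in WT, which overlapped.

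The exchange was not seen over the whole set of annotated invertases. The table held 13 other genes described as invertase, and the 6 members made up 15.9%, 20.4% and 20.4% of the summed TPM of all 19 in sgs3 and 24.1%, 17.4% and 23.1% in WT. All 9 genes described as insoluble, that is cell wall, isoenzymes took 11.6%, 14.2% and 12.8% of this sum in sgs3 and 12.3%, 8.38% and 12.4% in WT. These ranges overlapped, in contrast to the share among the 6 members. The 8 alkaline/neutral genes summed to 64.8, 77.2 and 73.4 TPM in sgs3 and to 109, 75.9 and 79.7 TPM in WT. The most abundant of them, LOC_Os04g33490, had 36.2, 36.7 and 40.3 TPM in sgs3 and 56.8, 36.3 and 37.1 TPM in WT, with overlapping groups. In every library it exceeded each of the 6 members.

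Of the 13 other invertase genes 7 were tested, of which 1 rose and none fell on TPM, beside 1.55% higher and 26.3% lower over all tested genes. Their median log2 fold change was -0.52. The gene that rose, LOC_Os01g22900, is described as an alkaline/neutral invertase, like CINV1. It had 10.8, 15.8 and 8.87 TPM in sgs3 and 2.39, 6.29 and 4.75 TPM in WT. Every sgs3 library lay above every WT library, the opposite order to CINV1. The log2 fold change was 1.26 with SE 0.40, and it passed (limma adjusted p = 0.0486). After scaling the 95% interval was 0.99 to 3.31, and the gene missed the threshold (limma adjusted p = 0.0675). The cell wall genes LOC_Os09g08072 and LOC_Os09g08120, both described as isoenzyme 7, had log2 fold changes of -0.77 and -1.07 on TPM (limma adjusted p = 0.147 and 0.0531). After scaling none of the 7 passed (limma) and their median was 0.20. At an unadjusted p under 0.05, 2 were higher after scaling, as were 15.4% of all tested genes.

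**Figure D3:**
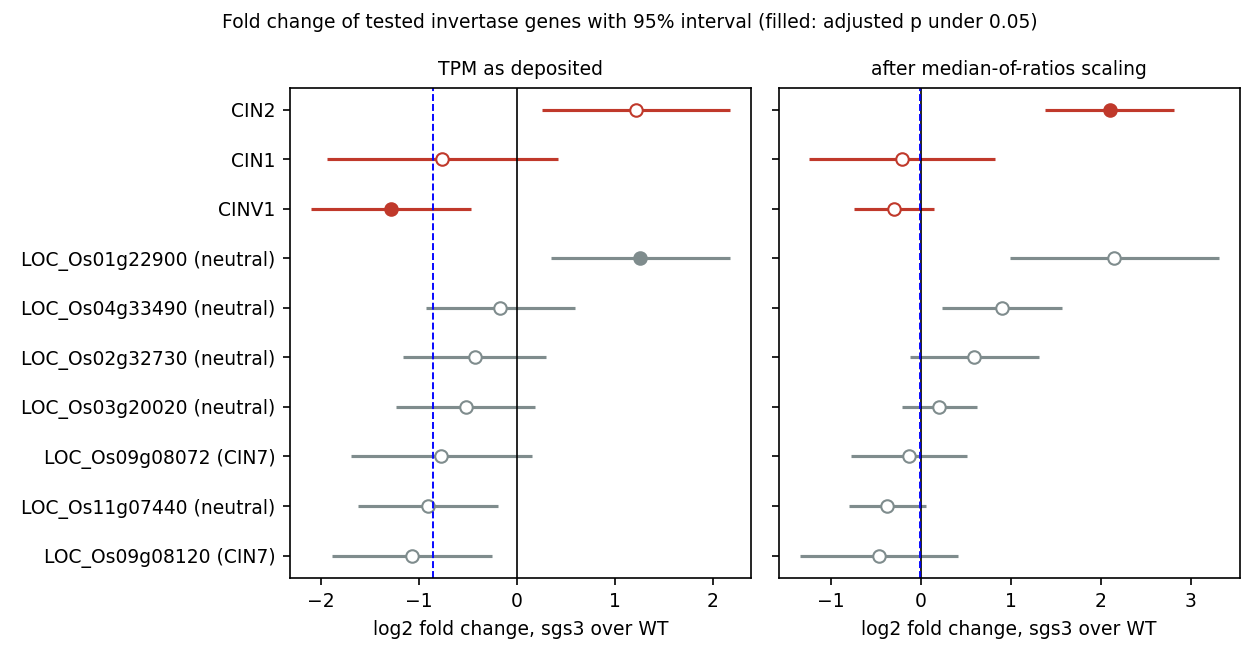
Log2 fold change of sgs3 over WT on log2(TPM + 1) for the 3 tested members (red) and the 7 other tested invertase genes (grey), as deposited on the left and after scaling on the right. Bars are 95% intervals, filled points passed the limma test, and the dashed line is the median of all tested genes, -0.86 on TPM and -0.01 after scaling. CIN2 and LOC_Os01g22900 lie at the right in both panels.

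The genes around invertase in sucrose use were taken from lists of loci or description patterns. Of all 139 listed genes 71 were tested, of which 3 rose (LOC_Os01g22900 above, sucrose synthase 7 and SWEET11) and 14 fell on TPM. These are 4.23% and 19.7% of the 71, beside 1.55% and 26.3% of all tested genes. Their median log2 fold change was -0.80, beside -0.86 over all tested genes. After scaling 2 rose and none fell (limma), beside 1.60% and 1.03% of all tested genes, with a median of 0.13. The numbers at an unadjusted p under 0.05 were then 14 higher and 9 lower, beside 15.4% and 17.5% of all tested genes. Without WT replicate 2, 30 of the 71 fell on TPM (limma), beside 7745 of all 16352 tested genes. Without any 1 of sgs3 replicates 1 and 2 and WT replicates 1 and 3 none fell, and none rose either except 1 without WT replicate 1 (limma). In these fits 51 to 300 of all tested genes fell and 41 to 105 rose, so the list counts moved with the whole table.

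Among enzymes that cleave sucrose by the other route, 5 of 7 sucrose synthases were tested. Of these 1 rose and 1 fell on TPM, beside 1.55% and 26.3% of all tested genes. The median log2 fold change of the 5 was -0.45 on TPM and 0.65 on scaled values. After scaling 1 rose and none fell (limma), beside 1.60% and 1.03% of all tested genes. Sucrose synthase 7 (LOC_Os04g17650) had 6.71, 12.2 and 3.87 TPM in sgs3 and 0.15, 1.87 and 0.37 TPM in WT. It lay higher in every sgs3 library and rose on both scales, by 2.26 on log2(TPM + 1) (SE 0.48, limma adjusted p = 0.0436) and with limma adjusted p = 0.0497 after scaling. Sucrose synthase 3 (LOC_Os07g42490) had 177, 220 and 529 TPM in sgs3 and 2506, 629 and 927 TPM in WT. It lay lower in every sgs3 library and fell by 2.04 on log2(TPM + 1), with SE 0.64 (limma adjusted p = 0.0477). After scaling its log2 fold change was -0.95 and did not pass (limma adjusted p = 0.191).

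Transport of sucrose and hexoses gave few calls that held on both scales. SWEET11 (LOC_Os08g42350), a sugar exporter of the developing grain, rose on TPM and after scaling (limma adjusted p = 0.0256 and 0.0223). SWEET14 (LOC_Os11g31190), a related exporter, had 17.2, 15.9 and 27.5 TPM in sgs3 and 64.0, 33.7 and 43.6 TPM in WT. It was lower in every sgs3 library and fell by 1.17 on log2(TPM + 1), with SE 0.38 (limma adjusted p = 0.0499), while its scaled log2 fold change was -0.11 (limma adjusted p = 0.754). The other SWEET genes listed, SWEET4 and SWEET15, passed neither test. None of the 3 tested of 5 sucrose transporters passed (limma). At an unadjusted p under 0.05, 1 was lower on TPM, beside 48.9% of all tested genes, and none after scaling. The most abundant, SUT1 (LOC_Os03g07480), had 15.1, 39.0 and 23.5 TPM in sgs3 and 54.8, 25.8 and 36.9 TPM in WT, which overlapped. Of 45 genes found by the hexose transporter pattern 17 were tested, of which none rose and 5 fell on TPM. The 5 are 29.4% of the list, near the 26.3% of all tested genes, and its median of -0.85 is near the -0.86 of all tested genes, so the count does not set the list apart. By description 9 of the 17 are enzymes of sugar phosphates and 8 are transporters, a split made after the values were seen. Of the 8 transporters 2 fell on TPM, and the median of the 8 was -0.76. After scaling none of them passed (limma) and their median was 0.10. At an unadjusted p under 0.05, 2 were then higher and 0 lower, beside 15.4% and 17.5% of all tested genes. On TPM sugar transport protein 13 (LOC_Os03g11900) and monosaccharide-sensing protein 2 (LOC_Os10g39440) fell by 1.82 and 1.49 on log2(TPM + 1) (limma adjusted p = 0.0465 and 0.0449). The 9 sugar phosphate enzymes had 3 falls on TPM, beside 26.3% of all tested genes. These were 2 putative glucose-6-phosphate epimerases (LOC_Os04g56290, LOC_Os08g14330) and a cytosolic glucose-6-phosphate isomerase (LOC_Os06g14510).

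The hexokinase and fructokinase pattern found 31 genes, 23 of them tested, of which none rose and 6 fell on TPM. The 6 are 26.1% of the list, beside 26.3% of all tested genes, so the count does not set the list apart, and the median log2 fold change was -0.95. By description 11 of the 23 are phosphofructokinases, of which 1 fell. The other 12 are hexokinases or fructokinases, of which 5 fell, beside 26.3% of all tested genes, with a median of -1.42. This split was made after the values were seen. After scaling none of the 12 passed (limma) and their median was -0.58. At an unadjusted p under 0.05, 0 were then higher and 5 lower, beside 15.4% and 17.5% of all tested genes. Hexokinase-2, hexokinase-7 and hexokinase-8 (LOC_Os05g45590, LOC_Os05g09500, LOC_Os01g09460), which phosphorylate glucose, had log2 fold changes of -2.19, -1.72 and -1.82 (limma adjusted p between 0.0436 and 0.0452). The fructokinase-2 genes LOC_Os03g40550 and LOC_Os08g02120, which phosphorylate fructose, fell by 1.64 and 2.20 on log2(TPM + 1) (limma adjusted p = 0.0436 and 0.0448). The phosphofructokinase that fell was the beta subunit of the pyrophosphate-dependent enzyme (LOC_Os06g13810, log2 fold change -1.91, limma adjusted p = 0.0436).

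The 2 remaining lists gave 1 call. The inhibitor pattern matched 25 genes, but all were described as pectinesterases or their inhibitors, so no invertase inhibitor was found by description. Of these 6 were tested and 1 (16.7%) fell on TPM, beside 26.3% of all tested genes, so the count does not set the list apart. It was LOC_Os01g65790 (by 1.35 with SE 0.36, limma adjusted p = 0.0436). None fell after scaling, also at an unadjusted p under 0.05. The sucrose-phosphate synthases and phosphatases, which make sucrose, had 6 of 9 genes tested, of which none passed on TPM or after scaling (limma). At an unadjusted p under 0.05, 1 was lower on TPM, beside 48.9% of all tested genes, and 2 were higher after scaling, beside 15.4%. The most abundant, sucrose-phosphate synthase 3 (LOC_Os06g43630), had 6.10, 8.07 and 10.96 TPM in sgs3 and 13.4, 13.4 and 11.8 TPM in WT.

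The genes most like each tested member across the 6 libraries were found by Pearson's r on log2(TPM + 1), among 6654 tested genes (6655 for CIN1) with a mean of at least 5 TPM and an informative description. For CIN2 they were the transcription factor HY5 (LOC_Os01g07880, r = 0.963) and the ubiquitin ligases HIP1 (LOC_Os05g07070, r = 0.941) and BAH1-like 2 (LOC_Os07g47590, r = 0.936), and these stayed above 0.92 after scaling. HY5 had 31.6, 43.2 and 35.5 TPM in sgs3 and 30.6, 24.2 and 21.8 TPM in WT. For CINV1 they were LOC_Os06g50840, LOC_Os02g56300 and LOC_Os03g44900 with r above 0.999, and after scaling r was 0.441, 0.777 and 0.411. For CIN1 they were LOC_Os02g04160, LOC_Os10g33930 and the nucleolar protein 58 gene LOC_Os03g45280, with r of 0.991, 0.984 and 0.984, and after scaling only the last stayed above 0.9 (-0.02, 0.308 and 0.979). The likeness of CIN2 to its neighbours thus changed little with scaling, while that of CINV1 and of 2 of the 3 neighbours of CIN1 dropped. All 6 libraries share their composition across genes, and these values are a description.

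The splicing tables held an event for 1 of the 6 members. A retained intron of CINV1, in a region running from 20717887 to 20719775 on the minus strand of chromosome 2 (genome build not given in the sources used here), was recorded in 3 sgs3 and 2 WT libraries. Reads for the retained form numbered 1 of 36, 0 of 42 and 0 of 67 junction reads in sgs3 and 0 of 81 and 1 of 113 in WT. Retention was thus at most 1 read in any library, and a count of 0 allows a share of reads of up to 7.14% (of 42) and 4.48% (of 67) in sgs3 and 3.70% (of 81) in WT, for counting error only. The inclusion level, which also corrects for the length of each form, was 0.014, 0 and 0 in sgs3 and 0 and 0.004 in WT. The difference of the means was 0.0027 and did not pass the quasi-binomial test with limma-moderated dispersion (adjusted p = 0.926), where 0.475% of the 5471 tested events were called in either direction. In the authors' deposited table its p-value was 1 and its FDR 1. Another retained intron, of the alkaline/neutral gene LOC_Os02g32730, was also recorded in 3 sgs3 and 2 WT libraries. It differed by -0.012 (quasi-binomial test with limma-moderated dispersion, adjusted p = 0.373).

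**Figure D4:**
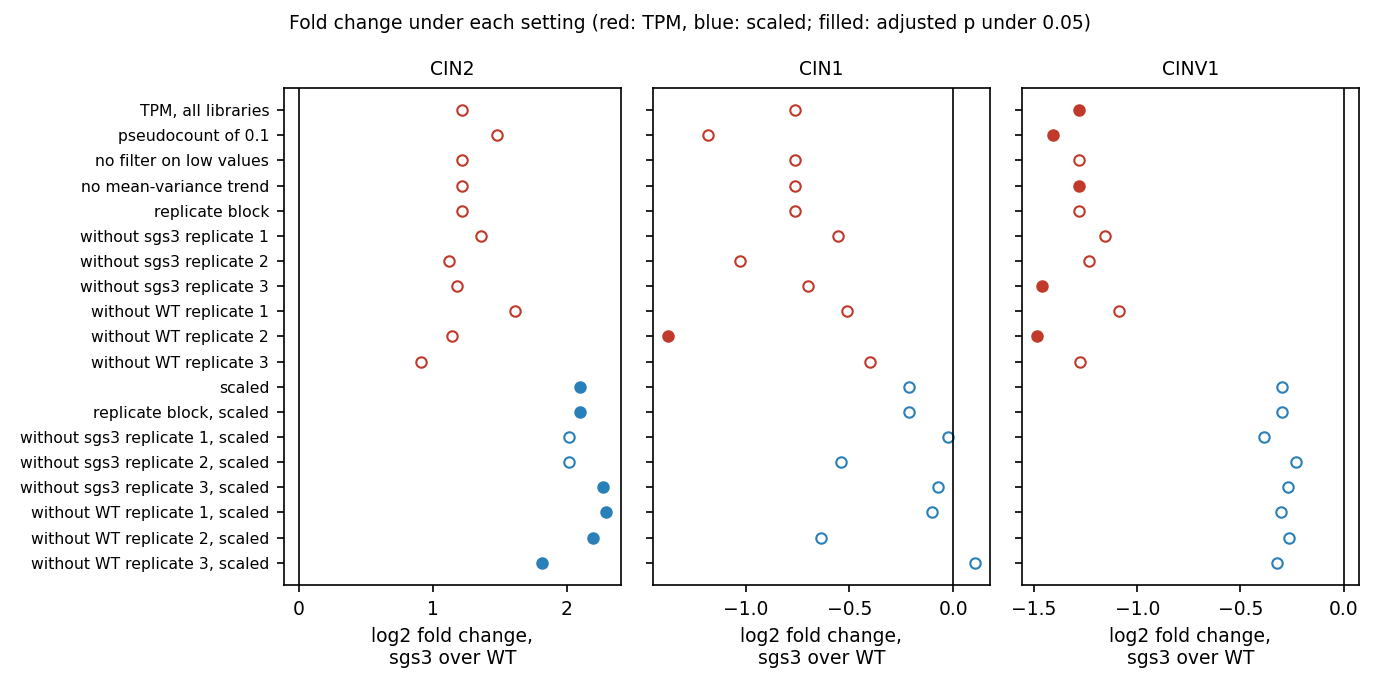
Log2 fold change of sgs3 over WT (horizontal axis) of CIN2, CIN1 and CINV1 under the settings named at the left, on TPM (red) and after scaling (blue), with filled points where the limma adjusted p was under 0.05. CIN2 stays above 0 and CINV1 below 0 in all settings drawn, while CIN1 lies at 0.10 when WT replicate 3 is left out of the scaled values.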

How the data were processed

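Messenger RNA of rice grains was sequenced in 3 sgs3 and 3 WT libraries, prepared with a SMARTer mRNA kit per the labels. Per the submitters' processing notes the tools included RSEM, StringTie, Bowtie2, HISAT2 2.1.0 and DESeq2 1.12.4, with no roles given. No genome build is named. The deposited gene table holds TPM computed by the authors, and its columns sum to 967526 to 994306, although its name speaks of counts. Its read depth is unknown, and counting error could not be estimated. The authors' deposited splicing tables hold junction reads per library, inclusion levels as a fraction, and a p-value and FDR of the authors' own test.

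Genes with at least 1 TPM in at least 3 libraries were tested on log2(TPM + 1) with limma 3.58.1 (R 4.3.3) and a trended prior variance, and called at a Benjamini-Hochberg adjusted p under 0.05 over all 16352. All results were repeated after median-of-ratios scaling, with factors from the 20826 genes above 0 in all libraries (0.494, 0.712 and 0.967 in sgs3, 2.01, 1.06 and 1.57 in WT). Such scaling takes most genes as equal between libraries.

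Junction read columns and inclusion columns of the splicing tables carry opposite group headings. Inclusion levels headed sgs3 follow from reads headed WT within 0.0005. The inclusion headings were used, since 94.9% of 6092 events in genes with mean TPM at least 2-fold apart then followed the TPM. Of 12313 events with reads, 5471 had 20 or more junction reads in each library recorded for the event. These entered a quasi-binomial model with limma-moderated dispersion. Calls needed an adjusted p under 0.05 and a difference of at least 0.1. Libraries in these tables carry no replicate number. Another 33 events without reads were left out.

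Gene names come from the table's descriptions and from RefSeq synonyms (assembly ASM3414082v1), which matched 4 of the 6 members. Named genes were the members, the 3 genes most like each tested member, and in each list those that passed or else the most abundant. Genes outside this rule (LOC_Os04g33490, LOC_Os09g08072, LOC_Os09g08120, LOC_Os02g32730, LOC_Os12g09580, SWEET4, SWEET15, LOC_Os04g32680 and LOC_Os06g36240) were chosen after their values were seen. The members and lists were chosen with earlier results of these data known. The fits were tested on simulated data. Alternatives covered scaling, filter, pseudocount, trend, replicate block and each library left out. Python 3.11.15 was used for tables and figures.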

Additional observations from a re-analysis of the deposited data

How the results depend on the processing

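Under limma the direction of CIN2 and CINV1 held in all alternatives run, and the calls did not. Leaving out each library in turn gave log2 fold changes on TPM from 0.91 to 1.61 for CIN2, -1.37 to -0.40 for CIN1 and -1.49 to -1.09 for CINV1, and after scaling from 1.81 to 2.29 for CIN2, -0.64 to 0.10 for CIN1 and -0.39 to -0.23 for CINV1. On scaled values CINV1 was not called without any 1 library (-0.39, -0.23 and -0.27 without sgs3 replicates 1 to 3, -0.30, -0.27 and -0.32 without WT replicates 1 to 3), and CIN2 was called without sgs3 replicate 3 (2.27) or WT replicate 1, 2 or 3 (2.29, 2.20 and 1.81). CIN1 was above 0 (0.10, limma adjusted p = 0.891) on scaled values without WT replicate 3. CIN2, not called on TPM, was called after scaling (2.10), also with factors from the tested genes alone (2.12). CINV1, called on TPM, was not called after scaling (-0.30), with factors from the tested genes alone (-0.28), or with no filter on low values (-1.28).

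Same-numbered libraries had deviations from their group means correlated at -0.53, 0.21 and -0.09. With 3 libraries per group and a composition shared across genes, these values cannot decide whether replicate numbers pair the libraries. With the replicate number as a block, CINV1 kept -1.28 but was not called (limma adjusted p = 0.0883), nor on scaled values (-0.30), while on scaled values CIN2 was called (2.10, limma adjusted p = 0.0441). With the block 50 genes of the whole table were higher and 82 lower, and none of the listed genes passed (0 higher, 0 lower).

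Counts of calls over all tested genes also moved. On TPM 253 were higher and 4295 lower, and after scaling 169 were lower. With no filter 42 were higher and 65 lower. With 1 library left out, 41 to 379 were higher and 51 to 7745 lower. Of the listed genes 3 were higher and 14 lower, against 0 lower after scaling, 0 and 0 with no filter, and 0 to 4 higher and 0 to 30 lower with 1 library left out. The cause of these differences was not tested. The summed cell wall TPM differed by 3.62 (sgs3 mean minus WT mean), or 9.66 after scaling, and by 2.26 to 5.20 with 1 library left out. The cytosolic difference was -10.1, or -2.09 after scaling, and -12.3 to -7.68 with 1 library left out. The cell wall share differed by 33.4 percentage points, and by 31.1 to 35.8 with 1 library left out.

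Scaling plus a left-out library, scaling plus the block, and factors from the tested genes were added after seeing the data. Leaving out libraries was not run for splicing, whose libraries carry no number. Unknown depth limits CIN1, CIN3 and the vacuolar genes most.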
